A study of Mus musculus with 8 samples.

Results

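Epcam, Cldn3, Cldn4, Cldn6, Cldn7, Ocln, Tjp1, Tjp3 and Marveld2 encode proteins of the tight junction and of the epithelial cell surface. They were taken by symbol from a table of read counts for 22691 mouse genes, and all 9 were found. RNA-seq had been done on mouse small cell lung cancer (SCLC) cells grown from primary lung tumors, in 4 cultures, each with a library made after forced expression of mouse Nfib and a library made with an empty vector. The 4 Nfib and 4 empty vector libraries thus form 4 pairs, Lmyc5 new (pair 4), Lmyc3 new (pair 3), Lmyc3 old (pair 2) and Lmyc1 old (pair 1). All 8 libraries carry the same label for genotype, which includes the invCAG-Mycl-Luc transgene and Rb1-/-, on an FVB/n and 129/Ola background. The labels name the cell lines Lmyc1, Lmyc3 and Lmyc5 but do not explain the words old and new, the age of the mice or how the Nfib vector is driven. A culture has 1 library per vector, and nothing says that a pair was grown more than once.

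Tight junctions seal the space between neighbouring epithelial cells. Claudins form the strands of the junction, and which claudins a cell makes sets what the seal lets through. Occludin (Ocln) and tricellulin (Marveld2) are membrane proteins of the MARVEL family that sit in the same strands, tricellulin where the corners of cells meet. The scaffold proteins ZO-1 (Tjp1) and ZO-3 (Tjp3) tie the strands to actin from the inside of the membrane, and ZO-1 also serves junctions of cells that are not epithelial. Epcam is a surface adhesion molecule of epithelia and carcinomas that binds claudin-7. SCLC is a neuroendocrine tumor of lung epithelium, and its cell lines range from clustered, epithelial forms to forms with fewer epithelial features.

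Levels are given as CPM (counts-per-million), with library sizes scaled by TMM, edgeR's correction for composition. Libraries held 21815264 to 29934021 counts, so that 3 counts, the limit that a count of 0 allows, stood at 0.1002 to 0.1375 CPM of total counts. Nfib itself had 3590, 2933, 4682 and 1282 CPM in the Nfib libraries of Lmyc5 new, Lmyc3 new, Lmyc3 old and Lmyc1 old, against 487, 163, 400.2 and 72.0 CPM with empty vector, higher with Nfib in every pair. Both libraries of a culture resembled each other (r of 0.978 to 0.990 over log2 of CPM + 1), while the Lmyc3 new libraries correlated with the Lmyc3 old libraries at only 0.834 to 0.860, the lowest of any pair of cultures. Lmyc3 new and Lmyc3 old both had transcripts of the Y chromosome (199 to 406 CPM summed over 4 genes). In Lmyc5 new and Lmyc1 old these were at 0.0678 to 0.195 CPM. Y transcripts alone do not show that cultures have the same origin. Neuroendocrine and lung lineage markers (9 genes) summed to 2164 to 4944 CPM. Markers of fibroblasts (6 genes, summed at 0.302 to 12.4 CPM), endothelium (5 genes, 0.186 to 6.82 CPM) and leukocytes (4 genes, 1.32 to 2.69 CPM) were low. Pdgfra gave most of the fibroblast sum and moved against Epcam, at culture means of 9.499, 0.204, 6.47 and 0.596 CPM in the order above, but Col1a1, a defining gene of fibroblasts, averaged 0.0715 CPM and the other 4 less, and the pan-leukocyte gene Ptprc was at 0.00545 CPM. Kdr, named after its values were seen, gave most of the highest endothelial sums. It had 6.48 and 5.75 CPM in the Nfib libraries of Lmyc3 new and Lmyc3 old, against 0.0371 and 0.0946 CPM with empty vector. In Lmyc5 new it had at most 0.156 CPM and in Lmyc1 old 0. Kdr did not pass the low-count filter and was not tested. Alveolar and airway markers (8 genes) summed to 2.483 to 13.01 CPM. As these are bulk samples, fewer cells that express a gene and less RNA of it per cell cannot be told apart.

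Epcam (ENSMUSG00000045394, chr17:87635979-87651106, GRCm38) was high in Lmyc3 new and Lmyc1 old and low in the other cultures. It had 5.27, 515, 23.7 and 229 CPM in the Nfib libraries of Lmyc5 new, Lmyc3 new, Lmyc3 old and Lmyc1 old, against 6.996, 591, 24.7 and 201 CPM in their empty vector libraries. The 2 libraries of a culture gave nearly the same level, and no library of 1 culture reached into the range of another. The next values are listed in the same order of cultures, with Nfib libraries before empty vector libraries.

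Cldn7 (ENSMUSG00000018569, chr11:69964779-69967885), a claudin of the lateral membrane, had the widest range. Nfib libraries held 0.0390, 121, 4.74 and 69.2 CPM, and empty vector libraries 0.0451, 111, 5.25 and 72.2 CPM. In Lmyc5 new this was 1 read in each library. The pooled counts, 5797 in Lmyc3 new and 2 in Lmyc5 new, gave a ratio of Lmyc3 new over Lmyc5 new of 2763 per unit of library size, with an exact 95% interval of 765 to 22824 that covers counting error only. Lmyc1 old exceeded Lmyc5 new 1693-fold by the same measure (468 to 13986).

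Cldn6 (ENSMUSG00000023906, chr17:23679365-23682446), a claudin best known from embryonic epithelia, was at 0.0390, 33.7, 0.414 and 64.9 CPM with Nfib and at 0.0903, 40.3, 0.520 and 87.8 CPM with empty vector. Lmyc1 old was the high culture here, and Lmyc3 old joined Lmyc5 new below 1 CPM. With 3 reads in the Lmyc5 new libraries together, Lmyc3 old still exceeded Lmyc5 new 7.43-fold (2.20 to 39.0).

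Cldn3 (ENSMUSG00000070473, chr5:134986214-134987472) followed another order. Its Nfib libraries had 69.0, 122, 3.04 and 71.3 CPM, and its empty vector libraries 54.5, 121, 2.98 and 89.3 CPM. Lmyc5 new, which lacked nearly all Cldn6 and Cldn7 reads, thus made Cldn3 at a level close to that of Lmyc1 old, and Lmyc3 old was the low culture. Cldn4 (ENSMUSG00000047501, chr5:134945126-134946934), which lies 39279 bases from Cldn3 with no other gene of the table between them, was almost silent in all cultures. Its reads numbered 1, 24, 0 and 0 in the Nfib libraries and 0, 15, 1 and 5 in the empty vector libraries, too few for the filter, and it is the 1 of the 9 genes that no test covers. Lmyc3 new held 39 of its reads, an 8.16-fold excess over Lmyc1 old (3.21 to 26.5).

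Ocln (ENSMUSG00000021638, chr13:100496507-100552718) split the cultures into a high and a low pair. It stood at 5.03, 103, 4.51 and 84.4 CPM with Nfib and at 4.78, 96.0, 5.01 and 78.6 CPM with empty vector. Marveld2 (ENSMUSG00000021636, chr13:100595957-100616971) lies 43238 bases from Ocln (the gap between the gene bodies), and the table has no gene between them. Its values were 10.3, 31.3, 2.25 and 30.8 CPM with Nfib, against 10.9, 30.7, 2.27 and 28.6 CPM with empty vector. The neighbours shared their high cultures, but Lmyc5 new lay above Lmyc3 old for Marveld2 and level with it for Ocln.

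The scaffold genes behaved unlike each other. Tjp1 (ENSMUSG00000030516, chr7:65296165-65371239) was expressed throughout, at 189, 202, 220.0 and 139.5 CPM with Nfib and at 227, 224, 198 and 135 CPM with empty vector. Only Lmyc1 old stood lower. Tjp3 (ENSMUSG00000034917, chr10:81273207-81291267), a scaffold largely restricted to epithelia, had 8.62, 66.4, 2.58 and 13.2 CPM with Nfib and 10.5, 72.7, 2.89 and 13.5 CPM with empty vector. Lmyc3 new exceeded every other culture for Tjp3. The gene overlaps Apba3, which held at most 721 reads in a library, and Cldn3 overlaps Wbscr25 with at most 19. The setting of strand in the counting is not given in the sources used here, so reads in such overlaps cannot be assigned.

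**Figure D1:**
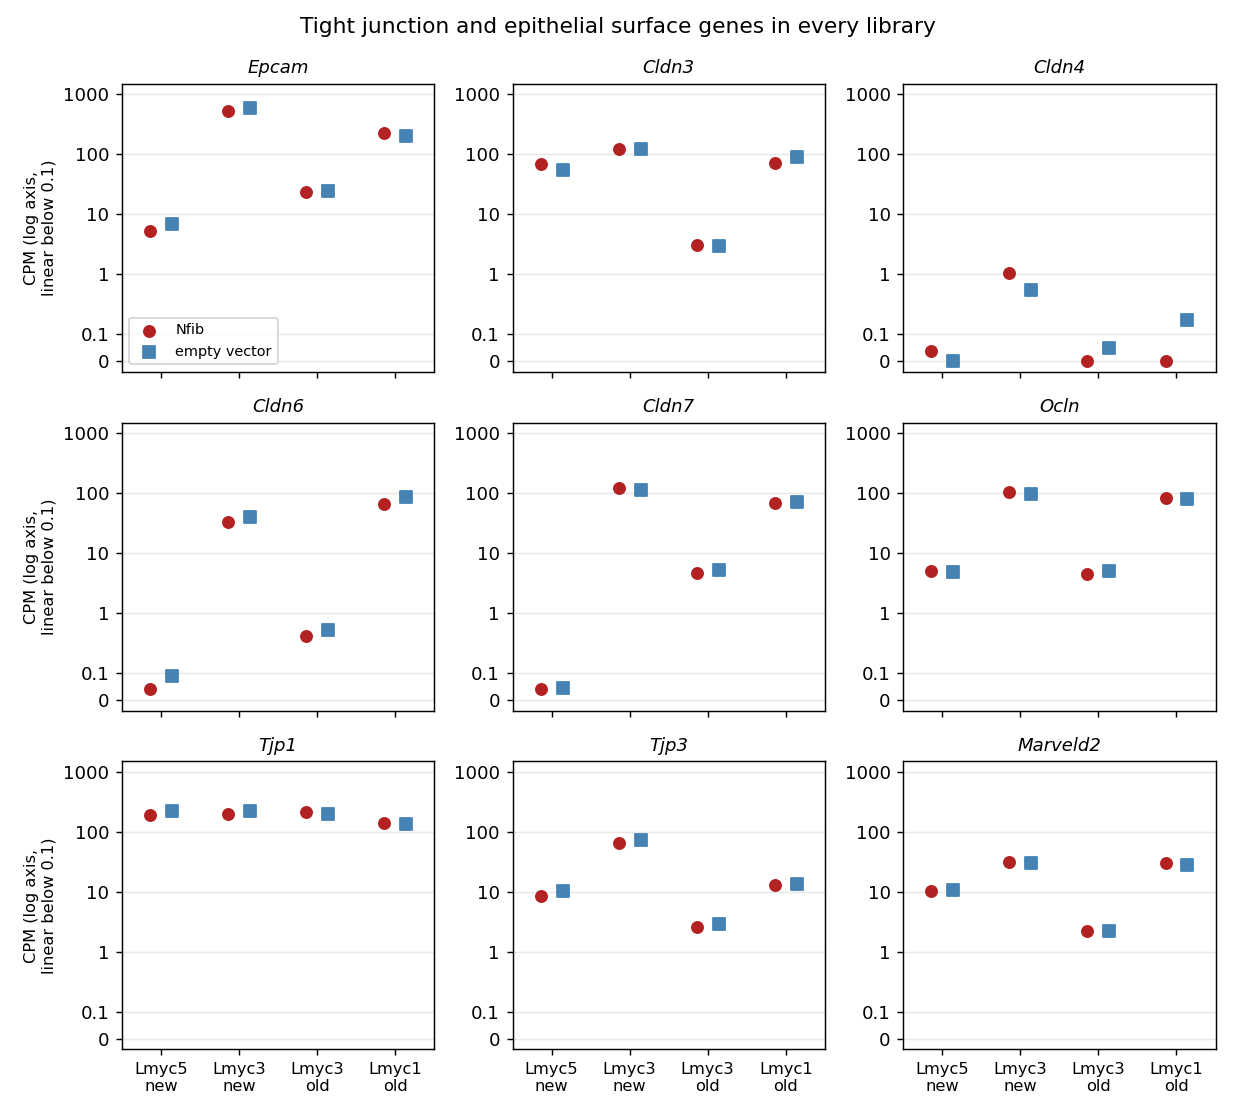
CPM of the 9 genes in every library, on a log axis that is linear below 0.1, with cultures along the x axis, Nfib libraries as circles and empty vector libraries as squares. Each point is 1 library. Circles and squares of a culture lie close together for all genes but Cldn4, which has few reads, and Tjp1 stays between 135 and 227 CPM while Cldn7 spans 0.0390 to 121 CPM.

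The promoters of these genes were read for the E-box CAGGTG, which reads the opposite way as CACCTG and was searched on both strands, the form bound by repressors of the Zeb and Snail families. The 250 bases before the RefSeq start are shown for Epcam and Cldn6, which hold a match (in capitals), and for Cldn7 and Tjp1, which hold none and have the widest and the narrowest range of level between cultures (RefSeq, GRCm38.p6, 5′ to 3′ on the strand of the gene). They lie at chr17:87635729-87635978 (Epcam, plus strand), chr17:23679115-23679364 (Cldn6, plus strand), chr11:69964529-69964778 (Cldn7, plus strand) and chr7:65371245-65371494 (Tjp1, minus strand).
Epcam: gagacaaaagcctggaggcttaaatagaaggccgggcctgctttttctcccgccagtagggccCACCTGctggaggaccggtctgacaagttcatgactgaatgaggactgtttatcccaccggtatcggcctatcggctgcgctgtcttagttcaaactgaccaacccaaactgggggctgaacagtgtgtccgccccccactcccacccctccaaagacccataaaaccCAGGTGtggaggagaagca
Cldn6: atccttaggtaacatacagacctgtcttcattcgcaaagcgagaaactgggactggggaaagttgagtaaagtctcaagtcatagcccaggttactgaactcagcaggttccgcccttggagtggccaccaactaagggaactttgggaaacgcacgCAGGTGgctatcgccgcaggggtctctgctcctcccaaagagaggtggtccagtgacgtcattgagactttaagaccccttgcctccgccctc
Cldn7: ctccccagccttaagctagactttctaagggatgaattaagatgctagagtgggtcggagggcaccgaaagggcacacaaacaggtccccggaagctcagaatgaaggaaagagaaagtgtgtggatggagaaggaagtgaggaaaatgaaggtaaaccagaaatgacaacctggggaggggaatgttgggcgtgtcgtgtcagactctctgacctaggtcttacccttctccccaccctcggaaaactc
Tjp1: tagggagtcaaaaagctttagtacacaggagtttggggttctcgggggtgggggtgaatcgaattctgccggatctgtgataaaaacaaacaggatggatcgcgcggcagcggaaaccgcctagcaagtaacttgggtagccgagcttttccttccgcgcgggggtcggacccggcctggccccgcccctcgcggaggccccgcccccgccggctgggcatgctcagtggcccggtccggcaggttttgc
Epcam held the motif at -187 to -182 and at -19 to -14 from its start, and Cldn6 at -93 to -88. Cldn4 (-14 to -9) and Tjp3 (-17 to -12) had 1 match each, which makes 4 of 9 promoters. It occurred in 17.2% of all 32851 promoter windows of the same length. Cldn3, Cldn7, Ocln, Tjp1 and Marveld2 had none in this window. For each gene 1 RefSeq start was used, the one nearest to the start of the gene in the count table. The GENCODE annotation begins further upstream for Tjp1 (base 65527781), Tjp3 (base 81291581) and Cldn6 (base 23679249). Sequence before those starts was not searched. The motif AACNNGTT, part of what Grainyhead-like factors of epithelia bind, occurred in 0 of the 9 promoters and in 3.64% of all windows.

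Levels of different genes were compared per length, as RPKM (CPM per kilobase of exon). Lmyc3 new, averaged over its 2 libraries, had Epcam at 252, Cldn3 at 96.5, Cldn7 at 59.6, Tjp1 at 27.3, Ocln at 23.5, Cldn6 at 21.5, Tjp3 at 18.7 and Marveld2 at 9.17 RPKM. In Lmyc1 old, Epcam (97.9 RPKM) and Cldn3 (63.8 RPKM) also led, with Cldn6 next at 44.4 RPKM. The order was different in the other cultures. In Lmyc5 new, Cldn3 was the leading gene at 49.0 RPKM, Tjp1 followed at 26.6 RPKM and the remaining genes were at 3.13 RPKM or less. Lmyc3 old had Tjp1 at 26.8 RPKM, Epcam at 11.02 RPKM and no other of the 9 genes above 2.56 RPKM. Cldn4 reached at most 0.571 RPKM in any library. Among the 4 claudins of the set, Cldn3 was the highest per length in Lmyc5 new, Lmyc3 new and Lmyc1 old, and in Lmyc3 old Cldn7 and Cldn3 were close, at 2.56 and 2.39 RPKM. A pair of genes outside the set lay above both in Lmyc3 old, Cldn25 (Cldnd1 in the GENCODE annotation) at 22.0 RPKM and Cldn12 at 5.80 RPKM, and both were chosen after their values were seen.

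Differences between cultures were tested with edgeR's quasi-likelihood test, each culture being represented by its 2 libraries and the vector being a term of the model, with Benjamini-Hochberg adjustment over all 13380 genes that passed the low-count filter. The spread in this test is that between the libraries of a culture, so the p-values speak of these cultures and not of new cultures of a line. The test called 76.7% of all genes, so that its call on 8 of the 8 genes tested tells little by itself. Ranges between the highest and lowest culture were taken on log2 CPM with a prior count of 2, which narrows them where reads are few. The log2 range was 9.86 for Cldn7, 9.02 for Cldn6, 6.49 for Epcam, 5.30 for Cldn3, 4.63 for Tjp3, 4.36 for Ocln and 3.73 for Marveld2, against a median of 0.93 over all genes tested. Fitted log2 fold changes of Lmyc5 new were larger in size, -11.27 for Cldn7 against Lmyc3 new and -10.12 for Cldn6 against Lmyc1 old. Only 0.120% of the genes tested had a larger range than Cldn7 and 0.344% a larger range than Cldn6. For Epcam the share was 2.66% and for Marveld2 11.2%. The filter dropped some genes with reads mainly in 1 culture, including a keratin gene with a range of 8.98. These shares leave such genes out. A range above 9 was seen for Cldn6, whose promoter window above holds the E-box, and for Cldn7, whose window does not. The windows cover only 250 bases, and a link between the motif and the range was not tested. Tjp1, with a range of 0.63, was exceeded by 67.2% of genes, and its call (adjusted p of 0.00943) rested on Lmyc1 old, without which the adjusted p was 0.949.

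The cultures Lmyc3 new and Lmyc3 old bear the name of the same line and differed over nearly the whole set. Of the 8 genes, 7 were higher in Lmyc3 new and 0 were lower, where 30.4% of all genes were higher and 29.5% lower. The median log2 fold change was 4.53 for the 8 genes and -0.01 for all genes tested. Cldn6 had the largest, at 6.30 ± 0.16 (SE), followed by Cldn3 (5.33 ± 0.20), Tjp3 (4.67 ± 0.13), Cldn7 (4.54 ± 0.11), Epcam (4.51 ± 0.15), Ocln (4.38 ± 0.11) and Marveld2 (3.77 ± 0.13), all with adjusted p-values of at most 6.53e-05. An SE is not part of edgeR's output and was derived here by dividing a fold change on the log2 scale by the root of its F statistic. Tjp1 was the exception, at 0.02 ± 0.11 with an adjusted p of 0.860. At a size of 16-fold, chosen after the values were seen, 6 of the 8 genes passed in this direction, compared with 2.47% of all genes.

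Against Lmyc3 new, Lmyc5 new was lower for 7 of the 8 genes and higher for 0, while 22.9% of all genes were lower and 22.9% higher. The fall ranged from 0.98 for Cldn3 on the log2 scale (-0.98 ± 0.16, adjusted p of 0.00471) to the near loss of Cldn6 and Cldn7 described above. Epcam differed by -6.50 ± 0.17, Ocln by -4.34 ± 0.11, Tjp3 by -2.87 ± 0.12 and Marveld2 by -1.55 ± 0.12. Tjp1 did not pass (-0.04 ± 0.11, adjusted p of 0.809). The median over the 8 genes was -3.60, and -0.0013 over all genes.

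Set against Lmyc1 old, each other culture gave a different picture. Lmyc3 old was lower for 7 genes and higher for Tjp1 (0.61 ± 0.11), with 24.7% of all genes lower and 23.7% higher. Here Cldn6 was 161-fold and Cldn3 26.7-fold lower. Lmyc5 new was lower for 6 genes and higher for Tjp1, against 23.2% and 23.5% of all genes, and Cldn3 did not pass (-0.38 ± 0.15, adjusted p of 0.0943). The call of Tjp3 in this comparison (-0.49 ± 0.11, adjusted p of 0.0176) was lost when the Lmyc3 new libraries were left out (adjusted p of 0.0916). Lmyc3 new was higher for 5 genes, led by Tjp3 at 2.38 ± 0.12 and Epcam at 1.36 ± 0.13, and lower for Cldn6 at -1.04 ± 0.11, where 18.7% of all genes were higher and 19.7% lower. Marveld2 (0.06 ± 0.11, adjusted p of 0.689) and Ocln (0.29 ± 0.09, adjusted p of 0.0544) did not pass there, although Ocln passed when the Lmyc3 old libraries were left out (adjusted p of 0.0231).

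The pair of cultures with the lowest levels split the genes. Lmyc5 new, compared with Lmyc3 old, was higher for Cldn3 (4.36 ± 0.19), Marveld2 (2.22 ± 0.13) and Tjp3 (1.80 ± 0.13). It was lower for Cldn7 (-6.73 ± 0.24), Cldn6 (-2.79 ± 0.35) and Epcam (-1.99 ± 0.15). Cldn7 and Cldn6 had only 2 and 3 reads in Lmyc5 new, so their SEs here understate counting error. By pooled counts, Lmyc3 old exceeded Lmyc5 new 119-fold for Cldn7 (exact 95% interval of 32.6 to 991). For Cldn6 the excess was 7.43-fold (2.20 to 39.0). Ocln (0.04 ± 0.11, adjusted p of 0.795) and Tjp1 (-0.01 ± 0.11, adjusted p of 0.939) did not pass. Of all genes, 25.3% were higher and 24.9% lower. In Lmyc5 new, the lowest Epcam and Cldn7 of the 4 cultures thus stood beside a Cldn3 level well above that of Lmyc3 old.

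**Figure D2:**
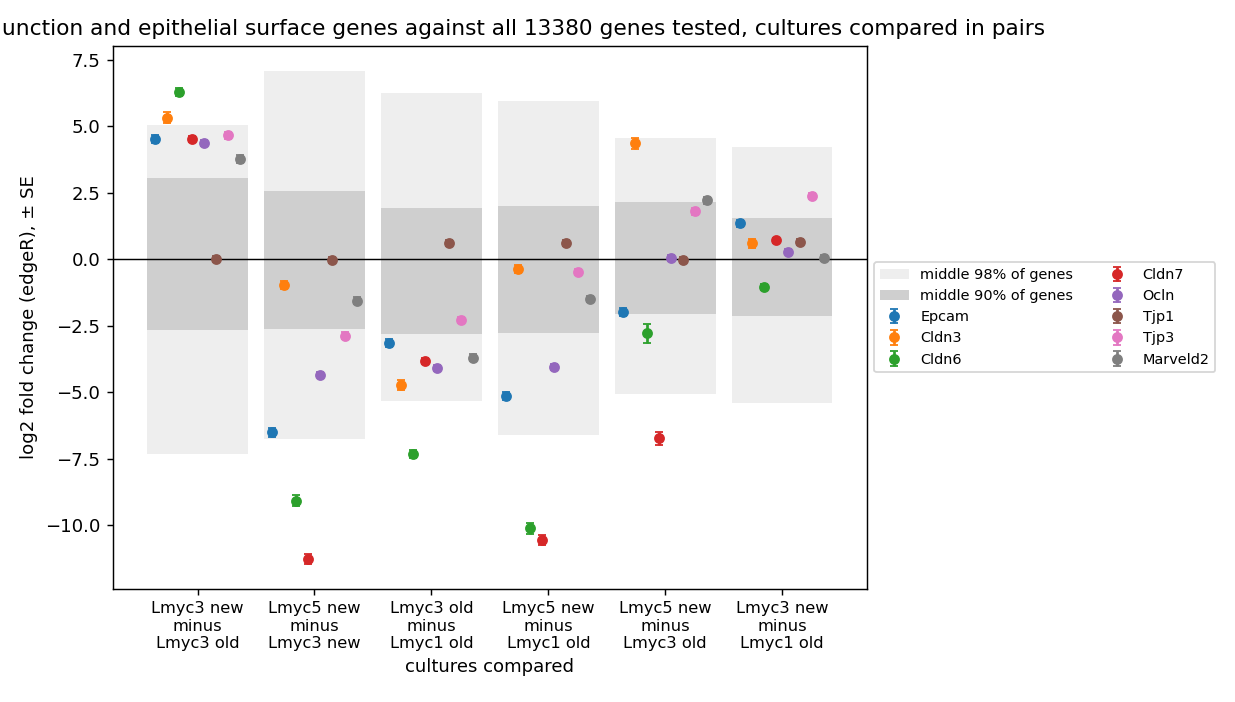
Log2 fold change with SE of the 8 genes tested (y axis) for each pair of cultures (x axis), over grey bands that hold the middle of all 13380 genes tested, as the legend gives. For Lmyc3 new minus Lmyc3 old, 7 of the 8 points lie between 3.77 and 6.30 and Tjp1 lies at 0.02, while for Lmyc5 new minus Lmyc3 old points lie on both sides of 0. In comparisons with Lmyc5 new, Cldn6 and Cldn7 rest on 3 and 2 reads there, and their SE bars understate counting error.

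In order of level, then, Epcam and Cldn7 ran Lmyc3 new, Lmyc1 old, Lmyc3 old, Lmyc5 new, with each neighbour differing from the next. For Cldn6 the order was Lmyc1 old, Lmyc3 new, Lmyc3 old, Lmyc5 new, again with every step called. Cldn3, Tjp3 and Marveld2 ran Lmyc3 new, Lmyc1 old, Lmyc5 new, Lmyc3 old, and the steps that did not pass were Lmyc5 new to Lmyc1 old for Cldn3 and Lmyc3 new to Lmyc1 old for Marveld2. Ocln had an upper pair (Lmyc3 new, Lmyc1 old) and a lower pair (Lmyc5 new, Lmyc3 old), neither of which was separated within itself. Across the 8 libraries, which fall into 4 cultures and so give few independent points, log2 CPM of Epcam correlated with that of Cldn7 at an r of 0.967 and Cldn6 with Ocln at 0.971. Cldn3 correlated with Marveld2 at 0.953 but with Cldn7 at 0.246, and Tjp1 gave values from -0.57 to 0.02 with the others.

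With forced Nfib, no gene of the set passed a test, and the within-pair differences were small beside those between cultures. Of the 8 genes, 0 passed edgeR's test without a block, in which 0 of 13380 genes passed (0%) and 83 had an unadjusted p under 0.05. With the replicate number as a block, which pairs the libraries of a culture, edgeR also called 0 genes, with 2012 at an unadjusted p under 0.05, and DESeq2's Wald test called 543 (4.06%), 249 higher (1.86%) and 294 lower (2.2%). DESeq2 called 0 of the 8 genes as well, and so it did without the block, where it called 3 of all genes (0.0224%), all higher. At an unadjusted p under 0.05, the blocked edgeR test had 1 of the 8 genes, Cldn6, and the other tests 0. As edgeR called 0 of all genes in both forms, it did not call Nfib itself, which was higher with Nfib in every pair. Its lack of calls on the 8 genes therefore says little. Without the block the spread between cultures stays in the error, and the SE ran from 0.21 for Tjp1 to 2.11 for Cldn6. The median change of the 8 genes was -0.04 in the paired DESeq2 test, compared with -0.01 over all genes.

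The largest mean difference among the 8 genes was that of Cldn6. Its within-pair log2 ratios of Nfib over empty vector, computed with a prior count of 2, were -0.51, -0.26, -0.28 and -0.44 in Lmyc5 new, Lmyc3 new, Lmyc3 old and Lmyc1 old, a mean of -0.37 ± 0.12 (SD, n = 4). Cldn6 was thus lower with Nfib in 4 of 4 pairs, though the ratio in Lmyc5 new rests on 1 and 2 reads. The paired edgeR test gave an adjusted p of 0.239 and an unadjusted p of 0.0140, and the paired DESeq2 test a log2 fold change of -0.37 with an interval of -0.76 to 0.03 and an adjusted p of 0.408, so the difference did not hold after adjustment over all genes.

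Tjp3 was also lower with Nfib in 4 of 4 pairs, by a smaller margin, with a mean ratio of -0.15 ± 0.10 (SD, n = 4) and a DESeq2 interval of -0.41 to 0.10. Epcam was lower in 3 of 4 pairs, its ratios being -0.40, -0.20, -0.06 and 0.18 in the same order of cultures, and its interval -0.33 to 0.13. Cldn3 was higher with Nfib by 0.34 in Lmyc5 new (a ratio above 0), within 0.03 of 0 in the Lmyc3 cultures, and its ratio in Lmyc1 old was -0.32. That gave a mean of 0.01 ± 0.27 (SD, n = 4). For Cldn7, Ocln, Tjp1 and Marveld2 the mean ratio lay between -0.05 and 0.03. Their DESeq2 intervals together ran from -0.29 to 0.28. The smallest difference between cultures that was called for any of these 4 genes was larger, 0.59 for Tjp1 in Lmyc5 new against Lmyc1 old.

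**Figure D3:**
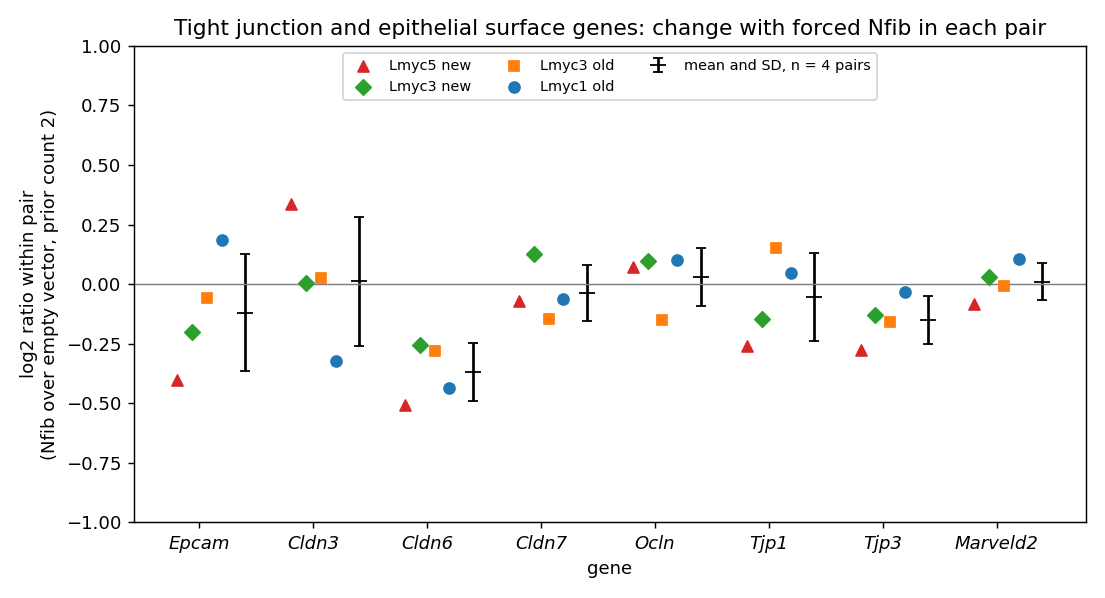
Log2 ratio of Nfib over empty vector within each pair (y axis) for the 8 genes tested (x axis), with a symbol per culture and the mean with SD over the 4 pairs in black. All ratios lie between -0.51 and 0.34, and those of Cldn6 and Tjp3 are below 0 in every pair.

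Other tight junction genes differed between cultures in both directions. A list of 52 had 43 symbols in the table and 33 that passed the filter. Between Lmyc3 new and Lmyc3 old, 16 of these 33 were higher and 9 lower, with a median log2 fold change of 0.56. Of all genes, 30.4% were higher and 29.5% lower there. In Lmyc5 new minus Lmyc3 new, 5 were higher and 17 lower (median -0.59), against 22.9% and 22.9% of all genes. In Lmyc3 new minus Lmyc1 old, 14 were higher and 6 lower (median 0.37), against 18.7% and 19.7%. In Lmyc5 new minus Lmyc3 old, 9 were higher and 13 lower (median -0.31), against 25.3% and 24.9%. Several of these counts, such as the 9 lower in the first comparison, are near the share of all genes. Genes higher in Lmyc3 new than in Lmyc3 old included the junction adhesion molecule F11r, which averaged 136 CPM in Lmyc3 new against 7.45 CPM in Lmyc3 old (4.20 ± 0.17), the tricellular junction protein Ildr1 (44.0 against 2.45 CPM), the polarity gene Crb3 (20.3 against 0.886 CPM), cingulin, the scaffold Cgn (188 against 21.2 CPM), and Cldn9 (3.35 against 0.235 CPM), which lies 137 bases from Cldn6. These 5 genes were at 0.655, 0.129, 0.0872, 15.3 and 0.0195 CPM in Lmyc5 new and at 64.4, 34.5, 10.9, 89.2 and 10.97 CPM in Lmyc1 old. The afadin gene Mllt4 and the adhesion receptor Cxadr were abundant in every culture, with lowest culture means of 266 and 106 CPM.

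Mpdz, a multi-domain scaffold of the junction, went the opposite way. It averaged 178, 0.386, 162 and 85.5 CPM in Lmyc5 new, Lmyc3 new, Lmyc3 old and Lmyc1 old, so that the culture with the highest Epcam, Cldn3, Cldn7 and Tjp3 had almost none. Its log2 fold change between Lmyc3 new and Lmyc3 old was -8.72 ± 0.20 (adjusted p of 3.82e-05). Ildr2 was also lower in Lmyc3 new (0.358 against 24.3 CPM in Lmyc3 old), but its Nfib and empty vector libraries disagreed widely in Lmyc3 old, at 43.4 CPM with Nfib and 5.16 CPM with empty vector.

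Other epithelial genes were mostly higher in Lmyc3 new than in the other cultures. Of 31 listed, 30 were in the table and 27 were tested. All 27 tested were higher in Lmyc3 new than in Lmyc3 old, with a median log2 fold change of 3.92, where 30.4% of all genes were higher. In Lmyc5 new, 26 were lower than in Lmyc3 new and 0 higher, against 22.9% and 22.9% of all genes. The median of the 27 for Lmyc5 new minus Lmyc3 new was -6.66, or -5.91 when the 2 genes without reads in Lmyc5 new were set to the limit of 3 counts over its libraries. Compared with Lmyc1 old, 24 were lower and 1 higher in Lmyc5 new, against 23.2% and 23.5% of all genes. In Lmyc3 new, 21 were higher and 0 lower than in Lmyc1 old, against 18.7% and 19.7%. In Lmyc3 old, 22 were lower and 1 higher, against 24.7% and 23.7%. In Lmyc5 new minus Lmyc3 old, where 3 of the 8 junction and surface genes were higher and 3 lower with a median of 0.02, 16 of the 27 epithelial genes were lower and 5 higher. Of all genes, 24.9% were lower and 25.3% higher there. The median of the 27 epithelial genes was -2.40, or -2.16 with the same limit. The keratin gene Krt8 averaged 0.870, 1265, 44.6 and 403 CPM in Lmyc5 new, Lmyc3 new, Lmyc3 old and Lmyc1 old. E-cadherin (Cdh1) averaged 1.24, 736, 63.9 and 279 CPM, and the epithelial splicing factor Esrp1 0.0677, 373, 22.0 and 217 CPM. St14, the membrane protease matriptase, had 0.376, 222, 10.9 and 104 CPM, and Ap1m2, the epithelial clathrin adaptor subunit, 0.104, 99.8, 6.92 and 76.8 CPM. The desmosome gene Dsp had 31.1, 1444, 104 and 411 CPM and the keratin gene Krt7 54.5, 844, 56.0 and 462 CPM. Plakoglobin (Jup), also abundant, differed less, at 127, 282, 152 and 128 CPM. It was higher in Lmyc3 new than in each other culture, but its differences among the other three did not pass (adjusted p of 0.984 for Lmyc5 new against Lmyc1 old, 0.368 for Lmyc3 old against Lmyc1 old and 0.354 for Lmyc5 new against Lmyc3 old). Cd24a, a surface glycoprotein, was at 933, 939, 496 and 680 CPM, the 1 gene of the list that was not lower in Lmyc5 new than in Lmyc3 new (adjusted p of 0.927).

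Of 9 mesenchymal regulators and markers, 4 passed the filter, and all 4 were lower in Lmyc3 new than in Lmyc3 old, where 29.5% of all genes were lower. Zeb1, a repressor that binds E-box motifs in epithelial genes, averaged 147, 0.158, 78.9 and 31.5 CPM in Lmyc5 new, Lmyc3 new, Lmyc3 old and Lmyc1 old. Fibronectin (Fn1) was at 61.5, 0.290, 58.1 and 0.540 CPM, with large spreads between the libraries of Lmyc5 new (SD of 43.8) and Lmyc3 old (SD of 37.2). Zeb2, a related repressor, followed another order, at 23.2, 43.5, 92.4 and 5.22 CPM. It was higher in Lmyc3 new than in Lmyc1 old (3.06 ± 0.25, adjusted p of 8.01e-04), and lower in Lmyc5 new than in Lmyc3 new (-0.87 ± 0.23, adjusted p of 0.0258). N-cadherin (Cdh2) stayed between 120 and 244 CPM in the culture means. The Snail family genes Snai2 and Snai1 did not pass the filter and were not tested. Snai2, named after its values were seen, averaged 6.45, 0.0833, 0.279 and 0.283 CPM in the same order of cultures. Snai1 had a highest culture mean of 0.361 CPM. With Nfib, the paired DESeq2 test called 0 of the 33 tight junction genes, 0 of the 4 mesenchymal genes and 1 of the 27 epithelial genes, against 4.06% of all genes. The 1 called of 27 is near that background, and the paired edgeR test called 0 genes. The called gene, the protease inhibitor Spint1, had a log2 fold change of -0.62 in the paired DESeq2 test (adjusted p of 0.0250) and was lower with Nfib in 4 of 4 pairs. Its values were 0.195, 101, 3.59 and 75.5 CPM with Nfib, against 0.226, 153, 7.71 and 92.9 CPM with empty vector, in the usual order of cultures. In Lmyc5 new both values lay little above the limit of 3 counts (0.119 CPM with Nfib and 0.134 CPM with empty vector). The direction in that pair therefore rests on a few reads.

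**Figure D4:**
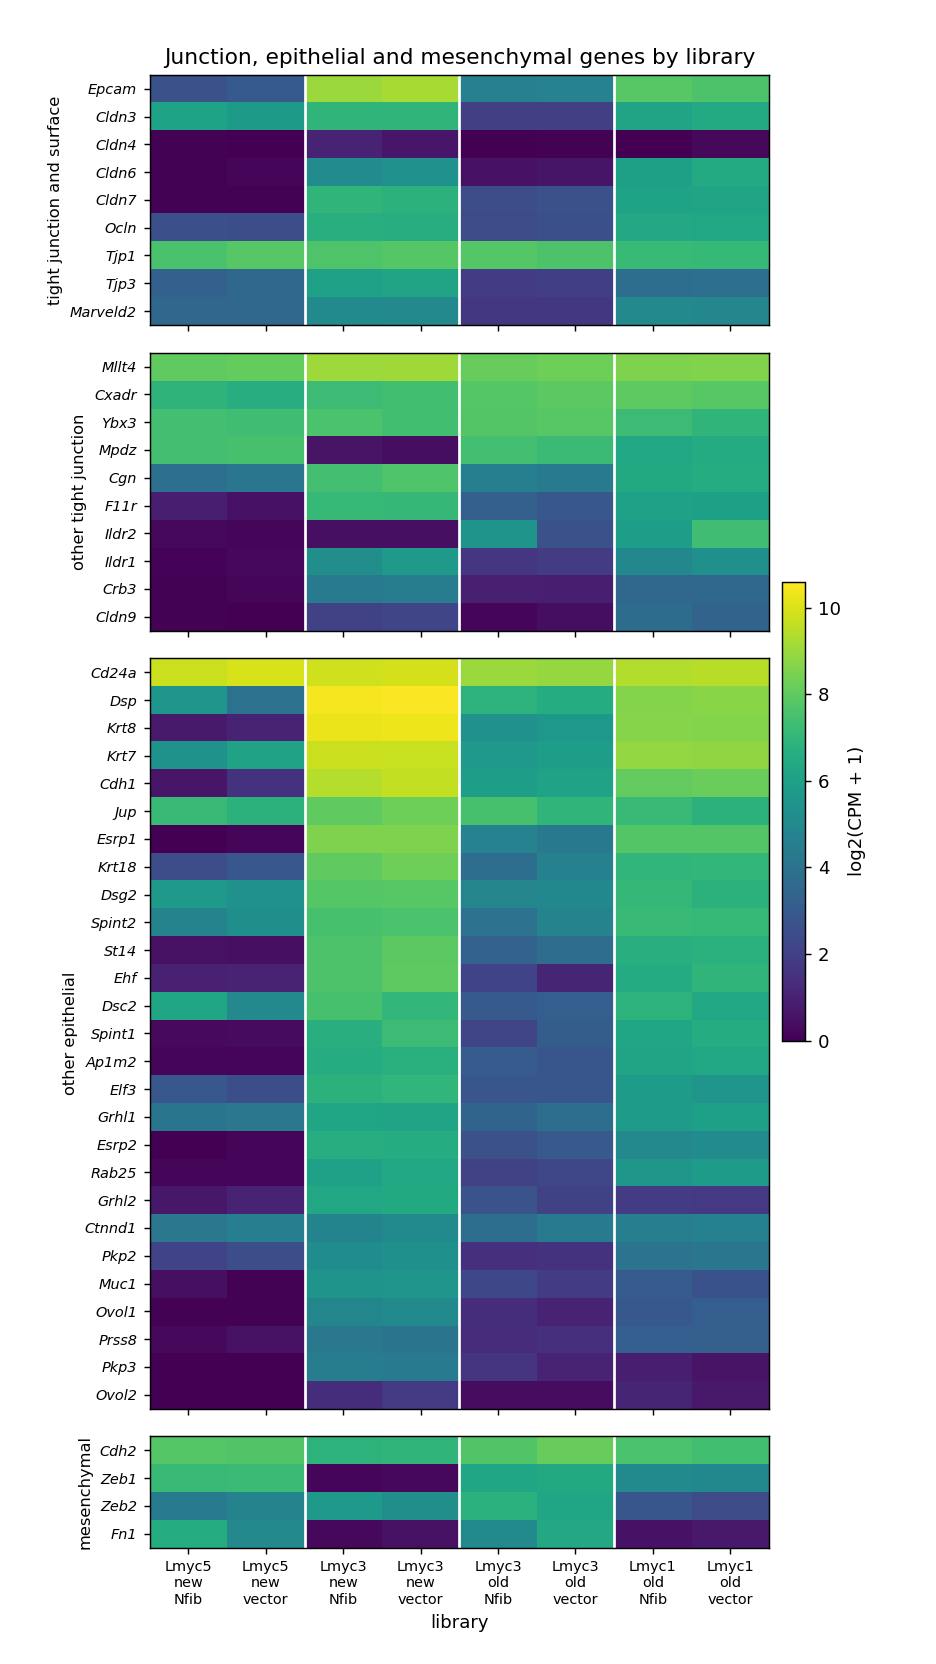
Log2 of CPM + 1 (color) for the 9 genes, the named tight junction genes, and all tested genes of the epithelial and mesenchymal lists (rows) in the 8 libraries (columns, Nfib left of empty vector in each culture). Most junction and epithelial genes are bright in Lmyc3 new and Lmyc1 old and dark in Lmyc5 new, while Tjp1, Mllt4 and Cd24a vary less and Mpdz and Zeb1 are dark only in Lmyc3 new.

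Genes with the most similar pattern were sought for each of the 8 genes among 5677 others (5678 for Tjp1) whose mean was 1 CPM or more and whose cultures spanned 1 log2 unit or more, by Pearson correlation of log2 CPM over the 8 libraries. With so many candidates and 4 cultures, values near 1 are easily reached, and they serve only as a description. Epcam was closest to Bcl2l14 (r = 0.996), Misp and Gm13648, and Cldn7 to Tnk1 (0.998), Ap1m2 and St14. Cldn6 was closest to Gm13789 (0.996), Fam83g and Foxn4, and Cldn3 to Tcirg1 (0.995), Dach2 and Slc7a3. Ocln came out with Kcnq1 (0.998), AI467606 and Mxra8, Marveld2 with Syne4 (0.998), Ctf1 and Rffl, and Tjp3 with Dnase2a (0.992), Hook2 and 4632428N05Rik. Tjp1, whose own range is under the limit, had the weakest likeness, with Ankle1 (0.969), Enox2 and Sv2c.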

How the data were processed

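Per the labels' protocols, libraries were made from total RNA with the Illumina TruSeq RNA kit. The authors deposited a table of whole-number read counts per Ensembl gene, not normalized. TopHat2 2.1, Bowtie 1.0.0, SAMtools 0.1.19, DESeq2 and the build GRCm38 are named, per the submitters' processing notes. For the counter, its strand option and the gene annotation, the source is not given in the sources used here. A part of the genotype label and some genes that the naming rule gives are not reported here, while counts over lists include them.

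The genes, the gene lists and the tests were chosen with earlier results of these data known. Groups and pair numbers follow the sample titles and sources. R 4.3.3 was used with edgeR 4.0.16 (quasi-likelihood test, original form of the fit, TMM factors, expression filter by vector, Benjamini-Hochberg adjusted p under 0.05) and DESeq2 1.42.0 (Wald test, fold changes not shrunk). Culture tests had vector as a term and 3 residual degrees of freedom, with 6 pairs of cultures compared. CPM used TMM-scaled library sizes, and RPKM the union of annotated exons (GENCODE M21, GRCm38). The scripts were tested on simulated data. Genes named from a list are its 6 of highest mean CPM and its 6 of widest range among those called between cultures with a mean of at least 1 CPM. Spint1 was named after its value was seen, as the only epithelial gene called with Nfib.

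The replicate number pairs libraries of the same culture, per the labels. Deviations from the group means correlated at 0.884 to 0.935 within a number and at 0.0647 at most between numbers. No 2 libraries were identical. Alternatives were another scaling, other low-count filters, other forms of the test and each pair left out. Exact intervals of count ratios, and floors, cover counting error only, since reads carry no molecular identifiers. DESeq2 intervals come from the SE of its fit, which includes spread between libraries. The p-values measure only the spread between these samples, which may be technical.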

Additional observations from a re-analysis of the deposited data

Results flagged for a closer look

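Cldn4 in the Nfib library of Lmyc3 new, at 1.04 CPM, stood apart from the other 3 Nfib libraries, which had 0 to 0.0390 CPM. Its within-pair ratio of Nfib over empty vector was above 0 in both new pairs and below 0 in both old pairs, with a difference of 1.81 between their mean log2 ratios, which was not tested and rests on 0 to 24 reads a library. Tjp3 in Lmyc3 new stood apart from the other 3 cultures, at 66.4 CPM among Nfib libraries and at 72.7 CPM among empty vector libraries. The within-pair log2 ratio of Ocln in Lmyc3 old, -0.15, was apart from those of the other pairs, which were 0.07 to 0.10. Tjp1 was lower with Nfib in both new pairs and higher in both old pairs, with a difference of -0.30 between new and old in the mean log2 ratio, which was not tested. In all, 27 groups of 4 values were examined for a value far from the others, and chance would mark about 1 in 20.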

How the results depend on the processing

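With Nfib, the count of all genes called moved with the test and block, from 0 in edgeR to 3 in DESeq2 without a block, 44 in edgeR's bias-adjusted form with the replicate block and 543 in DESeq2 with the replicate block, while 0 of the 8 genes were called under any of these. The log2 change of Cldn3 with Nfib, -0.02 as reported without a block, was 0.0082 with the replicate block in edgeR, 0.00042 with it in DESeq2, 0.0059 with it in the bias-adjusted form, 0.0064 with the line as a block and 0.012 with total counts. That of Cldn7, 0.05, was -0.012 in edgeR and -0.016 in DESeq2 with the replicate block. Leaving out each pair in turn, the unblocked change with Nfib ran from -0.12 (without replicate 4) to 0.11 (without replicate 1) for Cldn3. It ran from -0.0070 (without replicate 1) to 0.065 (without replicate 4) for Marveld2, and from -0.21 (without replicate 1) to 0.14 (without replicate 3) for Epcam. For Cldn7 it ran from -0.068 (without replicate 3) to 0.10 (without replicate 1). For Tjp1 it ran from -0.14 (without replicate 2) to 0.012 (without replicate 4). Each range crossed 0. All these values were less than the SE of the unblocked test, which keeps the spread between cultures in its error. With the replicate block and all pairs, edgeR's SE was 0.098 for Epcam, 0.117 for Cldn3, 0.080 for Cldn7, 0.079 for Tjp1 and 0.085 for Marveld2. At least 1 end of each range but that of Marveld2 lay further from 0 than this SE. Between Lmyc5 new and Lmyc3 old, Tjp1 was 0.033 with total counts instead of -0.01. Ocln between Lmyc3 new and Lmyc1 old passed in the bias-adjusted form (adjusted p of 0.0438) and with total counts (0.0424). The cause of these shifts was not tested. The replicate block changed no call on the 8 genes. The other alternatives for the culture tests kept each call and direction, apart from those named in the report for Tjp1, Tjp3 and Ocln when a pair was left out. Depth limits what can be said of Cldn4 in every culture and of Cldn6 and Cldn7 in Lmyc5 new, where 3 reads or fewer decide the ratio.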

Other observations

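Mpdz (ENSMUSG00000028402, chr4:81278500-81442815, GRCm38), which was almost absent in Lmyc3 new, lies 847357 bases from Nfib (chr4:82290173-82705750). In the empty vector libraries, Mpdz had 184, 0.297, 151 and 90.1 CPM in Lmyc5 new, Lmyc3 new, Lmyc3 old and Lmyc1 old. Nfib had 487, 163, 400.2 and 72.0 CPM there. Lmyc1 old, with the lowest Nfib, thus had more Mpdz than Lmyc3 new. A link between the levels of these genes was not tested. Nkx2-1, a factor of lung epithelium, was lower with Nfib in 4 of 4 pairs, with a log2 fold change of -0.39 in the paired DESeq2 test (adjusted p of 0.0122). It was the 1 gene called of the 9 neuroendocrine and lung lineage markers in that test, which called 4.06% of all genes. The call was lost in edgeR, which called 0 of 13380 genes with the block and 0 without it (2012 and 83 at an unadjusted p under 0.05). Its values were 104, 157, 170 and 136 CPM with Nfib in Lmyc5 new, Lmyc3 new, Lmyc3 old and Lmyc1 old, against 167, 202, 205 and 157 CPM with empty vector.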
